A study of Mus musculus with 8 samples.

Results

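The genes described here are 34 genes of the p53 pathway: Trp53, which encodes p53, its relatives Trp63 and Trp73, 4 genes known as its regulators or neighbours (Mdm2, Mdm4, Ppm1d and Wrap53) and 27 target genes. They were taken by gene symbol from a table of 18768 genes. Of the 34, 32 had values, 31 passed the filter on low counts among 15153 genes tested, Ddit4l did not pass it, and Trp63 and Trp73 were not analysed here. The RNA came from 4 lines of mouse tumor cells, sequenced in 2 libraries each. The IRF8 KO label is on MC010 and MC011, which came, per the study's methods, from IRF8 knockout mice, which lack a transcription factor of myeloid cells, and the WT label is on MC654 and MC659. All 4 were made in the same way, from a tumor that appeared about 3 months after a subcutaneous injection of 100 µg of methylcholanthrene (MCA), a chemical carcinogen, and were then cultured for at least 10 passages. Each line therefore stands for 1 tumor of 1 mouse, and the label contrast sets 4 libraries against 4 but only 2 lines against 2. The comparison asked how the RNA of Trp53 stood beside that of its targets in each line.

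p53 is a transcription factor that stress such as DNA damage stabilizes, and it turns on genes that arrest the cell cycle, trigger apoptosis, repair DNA and adjust metabolism. The Mdm2 protein, itself the product of a target gene, marks p53 for degradation, and Mdm4 blocks its activity, so that p53 is controlled mostly at the level of the protein. Chemically induced sarcomas are a classic setting in which p53 function is studied.

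Library depth ranged from 74063616 to 116206078 counts, at which 3 counts, taken as the floor, stood for 0.0262 to 0.0408 CPM, the usual unit of counts scaled by depth, here with library sizes normalized by TMM. The targeted gene, Irf8, had 442 and 347 counts in MC010 and 32 and 10 in MC011, against 1 and 2 in MC654 and 1 and 0 in MC659. The RNA of this gene ran opposite to the labels. By PCR of genomic DNA, however, the study reported MC654 and MC659 as WT and MC010 and MC011 as IRF8 KO. Counts per gene do not show whether a transcript is intact, and "KO" and "WT" below are names of labels only. All 9 fibroblast markers examined were present in every library, with 11061 to 11890 CPM summed in the KO-labelled libraries and 15904 to 17534 in the WT-labelled ones. Fn1 had 1142 to 2112 CPM in the KO-labelled libraries against 7779 to 8132, while Vim (5240 to 7384 against 4532 to 4900) and Pdgfra (70.2 to 446 against 17.1 to 19.9) lay the other way. The leukocyte marker Ptprc reached at most 0.177 CPM and the epithelial marker Epcam 1.19 CPM, while the keratin genes Krt8 and Krt18 carried an epithelial sum of 33.3 to 565 CPM in the KO-labelled libraries and 114 to 129 CPM in the WT-labelled ones. The 4 hematopoietic markers of 7 that had values summed to 5.72 to 7.38 CPM against 9.67 to 11.5 CPM. Endothelial markers summed to at most 0.789 CPM and muscle markers to at most 3.07 CPM. The part of these differences in the results was not tested, and in bulk RNA fewer cells of a type and less RNA per cell cannot be told apart.

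The p53 protein recognizes pairs of a 10-base half-site. Promoter windows of 300 bases, 250 before to 50 after a transcript's start, were taken from RefSeq (GRCm38.p6) for 25 of the 34 genes, 35 windows in all. A perfect half-site, a motif that is its own reverse complement and so covers both strands, was present in 14 of the 35 windows (40%) and in 8.36% of all 32851 windows. A full site, here 2 half-sites up to 13 bases apart with at most 2 mismatches outside their C and G cores, was present in 7 windows (20%) against 4.09% of all. These shares describe a list chosen as genes of the p53 pathway, most of them known targets. Overlapping windows count a shared half-site again, as in Trp53 and Wrap53 and in the windows of Aen. For each of the 6 genes with values, the full site with the fewest mismatches is shown, to be set beside the levels of these genes below. The half-sites are in capitals. The site of Cdkn1a, without a mismatch, lies at chr17:29090906-29090937, from 73 to 42 bases before 1 of its starts. The bases directly after it, tgacatgttc, form another full site with its second half-site, with no bases between and 1 mismatch. The other windows of Cdkn1a, Sesn1 and Gtse1 held no full site. Those of Ccng1 (chr11:40755462-40755481) and Gtse1 (chr15:85859945-85859964) had 1 mismatch each. Those of Sesn1 (chr10:41887253-41887275), Bax (chr7:45467090-45467114) and Gadd45a (chr6:67037438-67037468) had 2 each.
Cdkn1a: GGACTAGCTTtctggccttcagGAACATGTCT
Ccng1: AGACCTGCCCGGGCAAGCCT
Gtse1: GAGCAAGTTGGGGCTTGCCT
Sesn1: GCGCTTGGCCttcAAGCTTGTTT
Bax: TGACAAGCATatcccAGGCAAGCTT
Gadd45a: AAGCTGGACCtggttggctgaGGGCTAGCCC

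The window of Trp53 itself, chr11:69580109-69580408 on the plus strand, is shown whole because its RNA differed most between the labels. It held 1 perfect half-site, in capitals, and no full site.
Trp53: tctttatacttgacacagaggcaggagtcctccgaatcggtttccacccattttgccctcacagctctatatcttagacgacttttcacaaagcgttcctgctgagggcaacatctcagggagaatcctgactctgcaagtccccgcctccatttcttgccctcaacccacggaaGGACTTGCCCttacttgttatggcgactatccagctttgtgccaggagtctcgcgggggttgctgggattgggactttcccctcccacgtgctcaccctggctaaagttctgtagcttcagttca
Wrap53, which encodes a telomerase cofactor and lies head to head with Trp53, has a RefSeq start 109 bases away on the minus strand, and 208 bases of the windows are shared.

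Trp53 RNA (chr11:69580359-69591873) differed between the labels and between the KO-labelled lines. It stood at 351.9 and 336.6 CPM in MC010, 169.1 and 160.9 in MC011, 31.9 and 30.7 in MC654, and 30.5 and 29.1 in MC659. All KO-labelled libraries lay above all WT-labelled ones, and those of MC010 above those of MC011. The log2 fold change between labels was 3.06 ± 0.29 (SE, adjusted p = 0.000164, edgeR quasi-likelihood test, adjusted over all genes tested by Benjamini-Hochberg). By line, MC010 was 11.0-fold above MC654 and 11.6-fold above MC659, MC011 was 5.28-fold and 5.54-fold above them, and MC010 was 2.09-fold above MC011. Per kilobase of exon, the mean Trp53 level was 85.1 and 40.8 CPM per kb in MC010 and MC011, which ranked 1 of the 32 genes in both, and 7.73 and 7.37 CPM per kb in MC654 and MC659, where it ranked 14. When the libraries of each line were summed, so that 2 lines stood against 2, it was 3.07 on the log2 scale with an adjusted p of 0.0819, in a fit that called 0 of all 15153 genes.

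Its regulators did not follow this pattern. Mdm2, the E3 ligase of p53, stood at 84.7 and 89.7 CPM in MC010, 63.3 and 63.8 in MC011, 78.7 and 78.0 in MC654, and 75.0 and 74.2 in MC659. MC010 was the highest line and MC011 the lowest, on either side of the WT-labelled lines, and the label contrast gave -0.022 ± 0.12 on the log2 scale (adjusted p = 0.908, edgeR). Without MC011 the Mdm2 difference turned to 0.18. Mdm4, the related inhibitor, was lower in the KO-labelled libraries (log2 fold change -0.73 ± 0.14, adjusted p = 0.00508, edgeR), with 59.9 and 64.7 CPM in MC010, 88.8 and 91.1 in MC011, 121.0 and 132.1 in MC654, and 126.2 and 124.4 in MC659. Of the 5 genes in this group, Mdm4 alone had a line order opposite to that of Trp53, and its call was lost without MC654 (adjusted p = 0.0583), without MC659 (0.0613) or, by fold change, without MC010 (-0.50). Ppm1d, a phosphatase that switches p53 signalling off, stayed between 17.4 and 19.2 CPM in all 8 libraries (log2 fold change 0.016 ± 0.068, adjusted p = 0.874, edgeR). Wrap53 ranged from 19.8 to 24.8 CPM, and although it shares promoter bases with Trp53 its label contrast was 0.015 ± 0.099 (adjusted p = 0.923, edgeR).

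**Figure D1:**
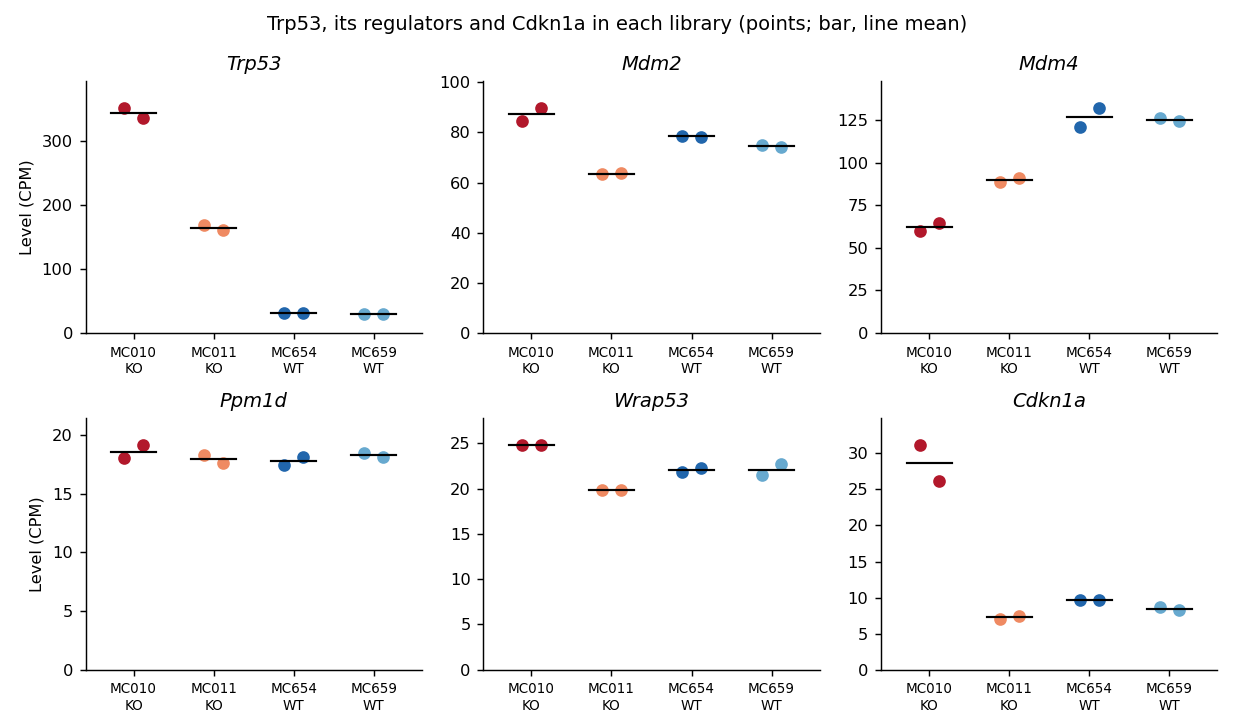
Levels of Trp53, Mdm2, Mdm4, Ppm1d, Wrap53 and Cdkn1a (vertical axes, CPM, each from 0) in the 2 libraries of each line (points) with the line mean (bar). Trp53 falls from 351.9 CPM in MC010 to 29.1 in MC659, Mdm4 is lowest in MC010, Ppm1d is level, and Cdkn1a is high in MC010 only among the 4 lines.

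Across the 31 tested genes, the label contrast called 6 as higher under the KO label and 4 as lower (edgeR, adjusted p below 0.05 with an absolute log2 fold change over 0.59), and left 21 uncalled. That was 32.3% of the genes, where 22.5% of all 15153 genes were called, 13.7% higher and 8.72% lower. The higher genes were Trp53, Pmaip1, Perp, Ddb2, Gtse1 and Xpc, and the lower ones Sesn2, Plk2, Apaf1 and Mdm4. The median log2 fold change of the 31 genes was 0.015, beside 0.0212 over all genes, and without Trp53 it was -0.0035. The libraries of the labels did not overlap for 17 of the 31, with the KO label above for 8 and below for 9, where 22.1% and 20.5% of all genes did so. A further 6 genes passed the adjusted p but fell short of the fold change, and the share of all genes that did so was not counted. Sesn1 (0.48) and Polk (0.24) were on the higher side, and Ccng1 (-0.53), Tnfrsf10b (-0.39), Zmat3 (-0.38) and Tigar (-0.36) on the lower. When the libraries of each line were summed, 0 of all 15153 genes passed the adjusted p and so none of the 31 did (edgeR, lowest of the 31 0.0715, for Apaf1), while 3361 of all genes and 11 of the 31 had an unadjusted p under 0.05. The number higher was 3 without MC654 and the number lower 2 without MC659. Without MC011 calls were gained instead, with Cdkn1a, Trp53inp1 and Plk3 higher and Bbc3 lower. Without MC010, Fas was called higher and Gadd45a, Trp53inp1 and Plk3 lower, while Mdm4, Gtse1, Ddb2 and Xpc lost their calls.

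**Figure D2:**
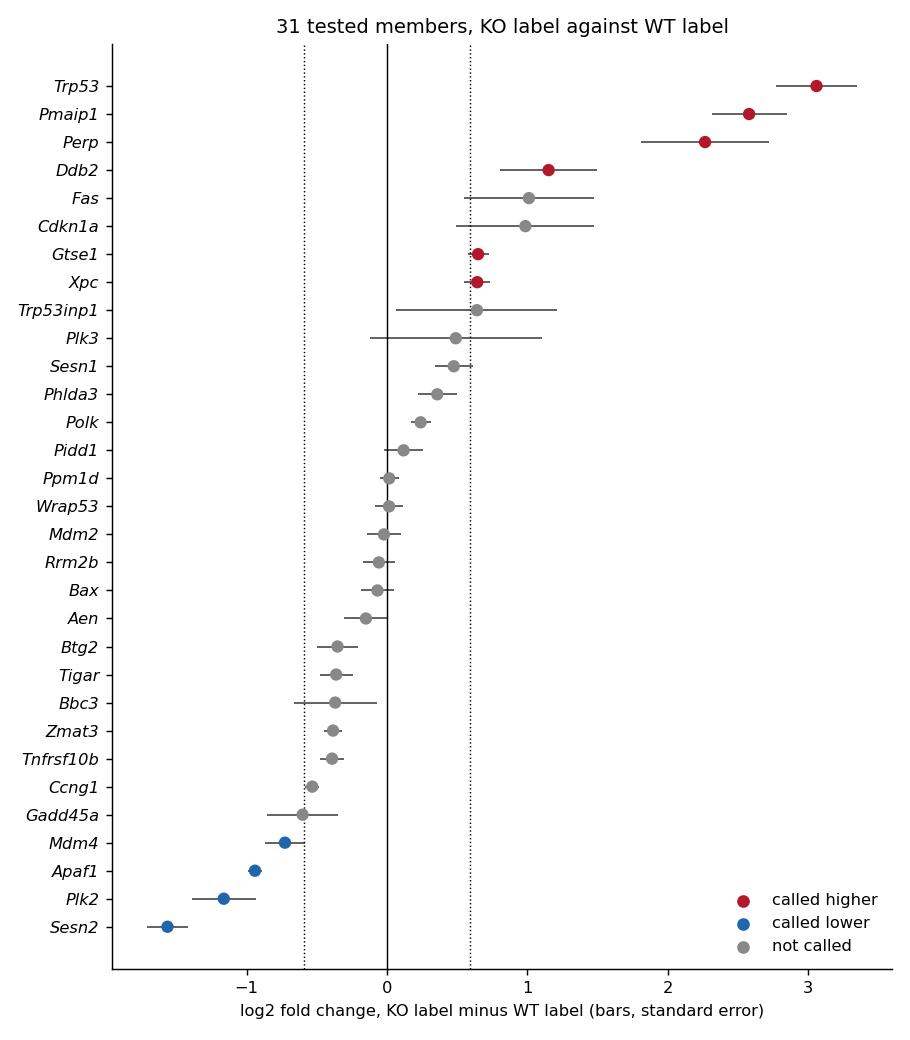
Log2 fold change of each of the 31 tested genes between the libraries labelled KO and WT (points, with standard error), ordered by size, with dotted lines at 0.59 in either direction. Genes lie on both sides of 0, from 3.06 for Trp53 to -1.56 for Sesn2, and 21 are not called.

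Among 7 genes of cell cycle arrest and division, 1 was higher and 1 lower, where 13.7% of all genes were higher and 8.72% lower. Cdkn1a, which encodes the cyclin-dependent kinase inhibitor p21 and is the best known p53 target, stood at 31.2 and 26.2 CPM in MC010, 7.08 and 7.46 in MC011, 9.73 and 9.63 in MC654, and 8.73 and 8.24 in MC659. It was high in MC010, while MC011, with 5.28-fold the Trp53 RNA of MC654, lay below every WT-labelled library. The label contrast was 0.99 ± 0.49 (adjusted p = 0.152, edgeR), 1.65 without MC011 (adjusted p = 8.38e-07) and -0.34 without MC010 (0.0287). Gtse1, a G2 and S phase protein known to restrain p53, was higher at 85.2 and 80.8 CPM in MC010 and 69.7 and 72.4 in MC011, against 51.4 and 47.5 in MC654 and 48.5 and 49.2 in MC659 (0.65 ± 0.075, adjusted p = 0.000422, edgeR). Its groups did not overlap, and without MC010 its log2 fold change, 0.51, was short of the threshold. Plk2, a stress-responsive polo-like kinase, was lower at 134.8 and 143.1 CPM in MC010 and 81.8 and 83.2 in MC011, against 205.6 and 206.6 in MC654 and 290.3 and 288.7 in MC659 (-1.16 ± 0.23, adjusted p = 0.00544, edgeR). The difference was in every library, and without MC659 the adjusted p was 0.0761.

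Its relative Plk3 went apart in the KO-labelled lines, with 88.7 and 81.2 CPM in MC010 and 15.2 and 15.0 in MC011, on either side of 45.3 and 41.0 in MC654 and 26.6 and 29.6 in MC659, so that the label contrast was 0.49 ± 0.61 (adjusted p = 0.566, edgeR). It was called lower without MC010 (-1.26, adjusted p = 0.00829) and higher without MC011 (1.25, adjusted p = 0.00426). Ccng1, encoding cyclin G1, was among the most even genes within each label, at 42.9 to 46.3 CPM in the KO-labelled libraries and 62.5 to 65.1 in the WT-labelled ones. Gadd45a, a growth arrest gene induced by DNA damage, was highest in MC659 at 22.1 and 22.2 CPM, with 9.42 to 14.2 CPM in the other 6 libraries (-0.60 ± 0.25, adjusted p = 0.095, edgeR). Gadd45a was called lower by DESeq2 (-0.61, adjusted p = 0.0484), and by edgeR without MC010 (-0.90, adjusted p = 0.0492) or without MC654 (-0.95, adjusted p = 0.0322). Btg2, an antiproliferative gene, had 3.10 to 4.32 CPM against 4.48 to 5.19, without overlap but with an adjusted p of 0.0982 (edgeR).

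Among 12 genes of apoptosis, 2 were higher and 1 lower, where 13.7% of all genes were higher and 8.72% lower. Those called act at different steps. Pmaip1, encoding the BH3-only protein Noxa, stood at 19.6 and 21.2 CPM in MC010, 16.7 and 20.4 in MC011, 2.38 and 2.11 in MC654, and 4.05 and 4.49 in MC659. Its levels in MC010 and MC011 overlapped although their Trp53 RNA did not, and the label contrast was 2.58 ± 0.27 (adjusted p = 0.000258, edgeR). Perp, a membrane protein gene of p53-dependent apoptosis, was low throughout, at 1.49 and 1.03 CPM in MC010, 2.44 and 2.27 in MC011, 0.18 and 0.27 in MC654, and 0.65 and 0.40 in MC659. MC011 was the highest line for Perp (label contrast 2.27 ± 0.46, adjusted p = 0.00591, edgeR), and its adjusted p was 0.0624 with the line as a random block (limma-voom) and 0.0595 without MC654. Apaf1, the scaffold of the apoptosome, was lower (log2 fold change -0.94 ± 0.047, adjusted p = 7.8e-06, edgeR), with 41.2 to 43.8 CPM in the KO-labelled libraries and 79.4 to 83.4 in the WT-labelled ones. The lines within each label differed by only -0.05 and -0.04 on the log2 scale.

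The other classic mitochondrial members did not separate the labels. Bax, the pore-forming effector, had 33.1 to 47.8 CPM against 39.4 to 46.8 (-0.068 ± 0.12, adjusted p = 0.694, edgeR), and Bbc3, encoding Puma, had 4.02 and 3.37 CPM in MC010 and 8.06 and 6.68 in MC011, against 5.53 to 8.39 in the WT-labelled libraries. Only MC010 of the 4 lines stood apart for Bbc3, on the low side, and Bbc3 was called lower by label without MC011 (-0.95, adjusted p = 0.00145, edgeR). Of the death receptors, Fas had 1.45 and 1.497 CPM in MC010, 2.97 and 3.71 in MC011, 0.77 and 0.62 in MC654, and 1.68 and 1.70 in MC659, with the lines of each label apart and the labels overlapping (1.01 ± 0.46, adjusted p = 0.121, edgeR, and 1.46 with adjusted p = 0.014 without MC010). Tnfrsf10b, a TRAIL receptor gene, had 31.8 to 40.4 CPM against 46.0 to 48.8. Trp53inp1, a stress-induced cofactor of p53, had 8.55 and 10.1 CPM in MC010 and 2.00 and 1.97 in MC011, on either side of 2.79 and 2.73 in MC654 and 4.50 and 4.50 in MC659. Its label contrast, 0.64 ± 0.57 (adjusted p = 0.42, edgeR), was -0.89 without MC010 (adjusted p = 0.0125) and 1.35 without MC011 (adjusted p = 0.000636), both called. Zmat3, an RNA-binding zinc finger gene, had 27.0 to 31.3 CPM against 37.5 to 38.9. Phlda3, an inhibitor of AKT, had 20.4 to 30.8 CPM against 17.7 to 21.2, Aen, a nuclease gene, 30.4 to 45.1 against 36.1 to 49.7, and Pidd1, a death domain protein gene, 13.7 to 19.6 against 13.9 to 17.0, none of which passed the adjusted p (edgeR).

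Of 4 DNA repair genes, 2 were higher, where 13.7% of all genes were. Both are known for the recognition step of nucleotide excision repair, and genes of this step were not tested as a group. Xpc, the damage sensor, had 27.3 to 31.5 CPM in the KO-labelled libraries and 16.6 to 20.6 in the WT-labelled ones, without overlap (0.64 ± 0.093, adjusted p = 0.0012, edgeR). Its log2 fold change was 0.54 without MC010 and without MC654, and 0.58 without the second library of MC654, each short of the threshold. Ddb2, which binds ultraviolet lesions, had 17.4 and 16.0 CPM in MC010, 7.51 and 7.13 in MC011, 4.13 and 4.39 in MC654, and 6.48 and 6.59 in MC659 (1.15 ± 0.35, adjusted p = 0.0321, edgeR). MC010 was far above the rest and MC011 only just above MC659. The Ddb2 call was lost in 6 of 8 fits that left out 1 library, each of MC010, MC654 and MC659 (adjusted p 0.0541 to 0.0884), and 652 bases of its exons overlap those of Acp2 on the other strand, which had a mean of 3401 counts. Polk, a translesion polymerase, had 31.6 to 34.2 CPM against 25.2 to 29.8, and Rrm2b, the p53-inducible subunit of ribonucleotide reductase, 15.8 to 21.6 against 17.0 to 21.01.

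Of 4 stress and metabolism genes, 1 was lower, where 8.72% of all genes were. Sesn2, a sestrin that restrains the growth kinase mTORC1, had 13.4 and 11.3 CPM in MC010, 17.3 and 16.8 in MC011, 45.0 and 39.5 in MC654, and 43.2 and 46.0 in MC659 (-1.56 ± 0.14, adjusted p = 0.000144, edgeR). Every KO-labelled library was below every WT-labelled one, and the line with the most Trp53 RNA had the least Sesn2. Its relative Sesn1 lay the other way, at 16.6 to 18.6 CPM against 10.1 to 14.7 (0.48 ± 0.13, adjusted p = 0.0244, edgeR), without overlap, and it was called higher without MC659 (0.70, adjusted p = 0.0155). Tigar, which lowers glycolytic flux, had 16.5 to 21.8 CPM against 23.4 to 27.2. Ddit4l, an mTORC1 inhibitor, was near the floor, with 0.122 and 0.0408 CPM in MC010, 0.384 and 0.278 in MC011, 0 in both libraries of MC654, and 0 and 0.0222 in MC659, and was not tested.

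Set side by side with Trp53, none of the other 30 tested members kept its order of lines. In that order MC010 was above MC011, and MC011 above MC654 and MC659, each past both thresholds. Of all genes 2.75% had it, so 0 of 30 is near the share of all genes. Without the threshold on the fold change, Gtse1 alone of the 30 had this order, and the share of all genes was not counted. Line by line, MC010 had 11 of the 31 genes higher and 5 lower than MC654, 51.6% where 35.9% of all genes were called (19.6% and 16.3%), and 9 higher and 6 lower than MC659, 48.4% where 36.8% were (19.1% and 17.7%). MC011 had 7 higher and 4 lower than MC654, 35.5% where 29.7% were called (17.2% and 12.4%), and 5 higher and 6 lower than MC659, 35.5% where 30.3% were (16.6% and 13.7%). In all 4 comparisons of a KO-labelled with a WT-labelled line, Trp53, Pmaip1 and Perp were higher and Sesn2 and Apaf1 were lower (edgeR, 1 group per line), against 8.74% and 5.35% of all genes. Besides Trp53, MC010 was above both WT-labelled lines for 8 of the 30 genes (Cdkn1a, Pmaip1, Trp53inp1, Perp, Gtse1, Plk3, Ddb2 and Xpc) and below both for 4 (Mdm4, Bbc3, Sesn2 and Apaf1), where 16.7% and 14.4% of all genes were. MC011 was above both for 3 (Pmaip1, Perp and Fas) and below both for 4 (Sesn2, Plk2, Plk3 and Apaf1), where 14.1% and 10.5% of all genes were. These comparisons share the WT-labelled libraries. Plk3 was the 1 member called on opposite sides of both WT-labelled lines, and the share of all genes so placed was not counted. It was 1.97-fold and 3.02-fold above MC654 and MC659 in MC010, and at 0.35 and 0.536 of their levels in MC011.

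**Figure D3:**
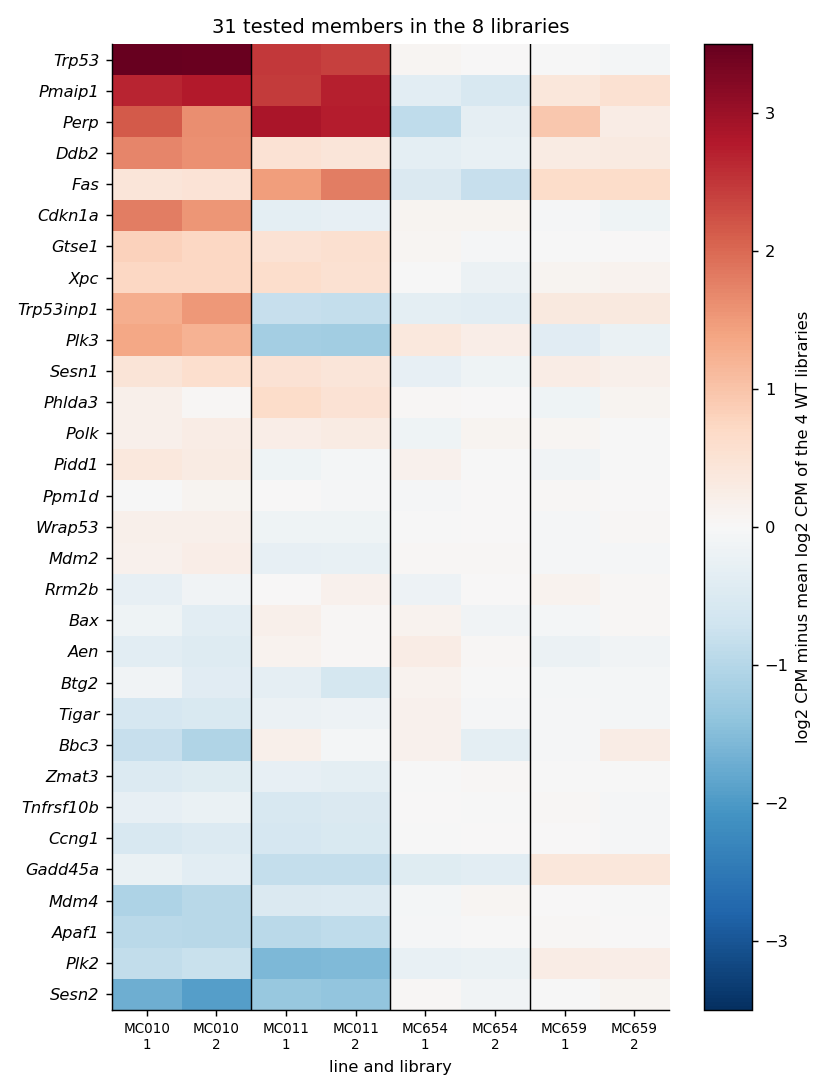
Log2 CPM of the 31 tested genes in each of the 8 libraries, as the difference from the mean log2 CPM of the 4 WT-labelled libraries (red higher, blue lower), ordered by the label contrast. Trp53, Pmaip1 and Perp are red in all 4 KO-labelled libraries, Sesn2, Apaf1 and Plk2 are blue in them, and Cdkn1a, Trp53inp1 and Plk3 are red in MC010 and blue in MC011.

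**Figure D4:**
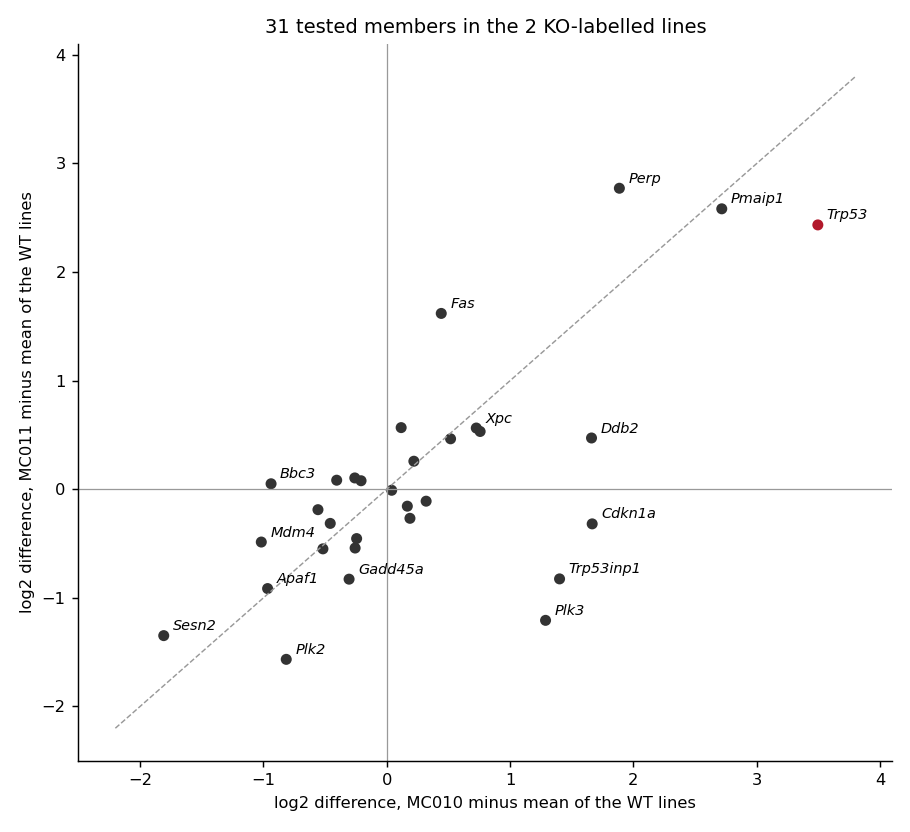
Log2 difference of each of the 31 tested genes from the mean of the WT-labelled lines, in MC010 (horizontal) and MC011 (vertical), with Trp53 in red and a dashed line of equal differences; the axes share the WT-labelled libraries. Trp53 stands at 3.495 and 2.43, and Cdkn1a (1.67 and -0.32), Trp53inp1 (1.40 and -0.83) and Plk3 (1.29 and -1.21) lie right of 0 and below it.

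Between MC010 and MC011, 6 genes were higher in MC010 and 3 lower (edgeR), 29% of the 31, where 31.6% of all genes were called, 15.7% higher and 16% lower. The share is thus near that of all genes. The higher genes were Plk3 (2.49 ± 0.074 on the log2 scale, adjusted p = 2.58e-13), Trp53inp1 (2.23 ± 0.14), Cdkn1a (1.98 ± 0.094), Ddb2 (1.19 ± 0.095), Trp53 (1.06 ± 0.049) and Plk2 (0.75 ± 0.046). They hold 3 of the 7 cell cycle genes. The lower genes were Fas (-1.18 ± 0.20), Bbc3 (-0.99 ± 0.17) and Perp (-0.89 ± 0.27). With Trp53inp1 on the higher side, these are 4 of the 12 apoptosis genes. Whether the calls divide by role was not tested. The adjusted p of Perp was 0.106 without the second library of MC010 and 0.0614 without the first of MC011. The median difference of the 31 genes was 0.053, against 0.00089 over all genes.

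**Figure D5:**
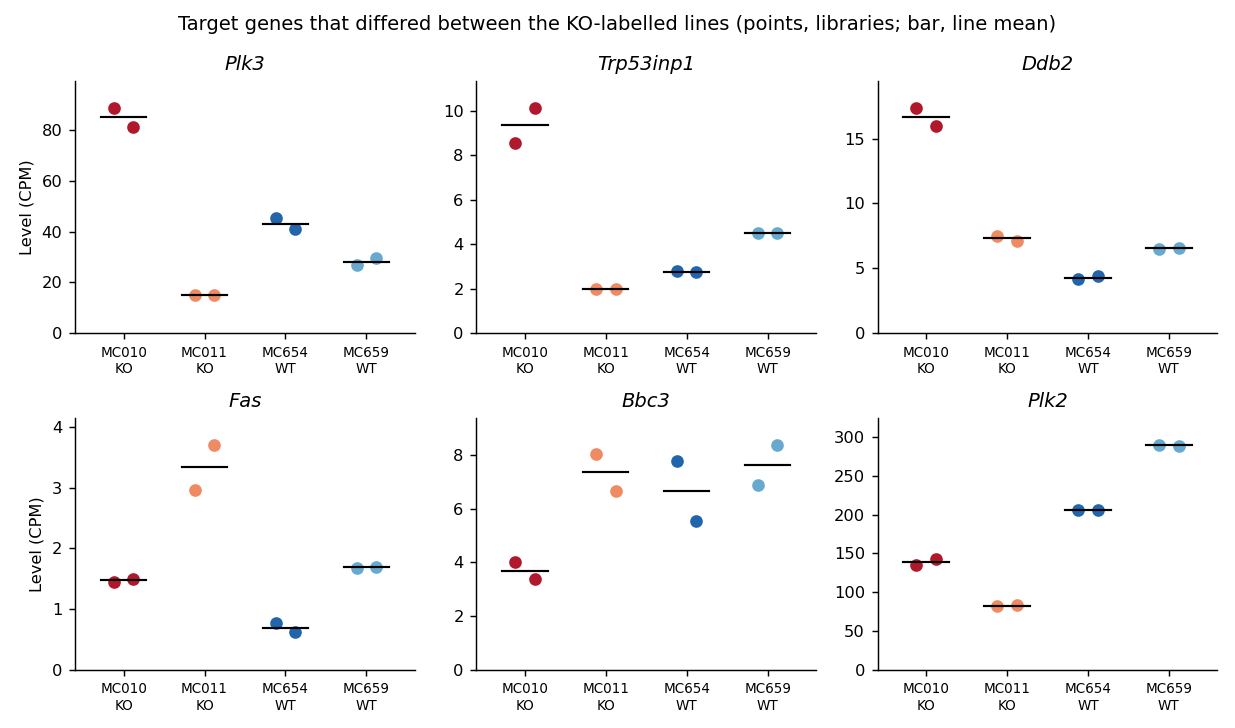
Levels of Plk3, Trp53inp1, Ddb2, Fas, Bbc3 and Plk2 (vertical axes, CPM, each from 0) in the 2 libraries of each line (points) with the line mean (bar). Plk3, Trp53inp1 and Ddb2 are highest in MC010, Fas is highest in MC011, Bbc3 is lowest in MC010, and Plk2 is highest in MC659.

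The Trp53 levels of the WT-labelled lines were close (0.069 ± 0.053 on the log2 scale, adjusted p = 0.448, edgeR), and 7 of the 31 genes were called, 22.6%, where 4.95% of all genes were, 1.24% higher and 3.71% lower in MC654. Plk3 was higher in MC654 (0.62 ± 0.071), while Fas (-1.28 ± 0.22), Perp (-1.21 ± 0.37), Pmaip1 (-0.93 ± 0.13), Gadd45a (-0.81 ± 0.077), Trp53inp1 (-0.70 ± 0.13) and Ddb2 (-0.62 ± 0.10) were lower in it. Of these 7, 5 were also called between MC010 and MC011, but the share of all genes called in both comparisons was not counted. The call of Plk3 was lost without the first library of MC654 or of MC659 (log2 difference 0.54 in both), that of Ddb2 without the first of MC654 (-0.57), and that of Perp in 4 of the 8 fits that left out 1 library (adjusted p 0.0548 to 0.336).

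Among 30 upstream regulators of p53, all tested, 1 was higher and 4 lower by label (16.7%, where 22.5% of all genes were called, 13.7% higher and 8.72% lower), with a median log2 fold change of -0.031. Ppp1r13l, which encodes the p53 inhibitor iASPP, was the 1 gene called in all 4 comparisons between lines, with 9.12 to 12.4 CPM against 19.6 to 24.5 (-0.99 ± 0.12, adjusted p = 0.00057, edgeR). The rest, named after their values were seen, were the kinase genes Atm (-0.71) and Dyrk2 (-0.71) and the nuclear matrix gene Banp (-0.60) on the lower side, and the acetyltransferase gene Kat5 (0.61) on the higher. The number higher was 0 without MC010 or MC659, without either library of MC010 alone and with the libraries of each line summed, where no gene of the 15153 was called, 3 without MC011 and 2 without its first library. The number lower was 2 without MC659 or its second library, and 0 with the summed libraries. Between MC010 and MC011, 3 were higher and 3 lower, 20% where 31.6% of all genes were called. Cdkn2a, which encodes p16 and the MDM2 inhibitor p19Arf, had 6.59 and 4.99 CPM in MC010, 343.5 and 285.9 in MC011, and 324.3 to 377.2 in the WT-labelled libraries. MC010, with the highest Trp53 RNA, was thus the 1 line with little Cdkn2a RNA (-5.74 between MC010 and MC011, adjusted p = 1.19e-13, edgeR), in a count that covers both products of the gene together. The damage kinases Atr (1.14) and Atm (0.77) were higher in MC010 than in MC011, and the ubiquitin ligase gene Herc2 (-0.99) lower.

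Among 43 tested of 45 further target genes, 12 were higher and 5 lower by label, 39.5% beside the 22.5% of all genes, with a median of 0.26. The most changed were Trp53i11, from 11.6 and 11.2 CPM in MC010 and 1.80 and 1.53 in MC011 to at most 0.144 in the WT-labelled libraries (6.47 ± 1.03, adjusted p = 0.00194, edgeR), Igfbp3, a binding protein of insulin-like growth factors (6.35 ± 1.40), and Sulf2, a sulfatase of heparan sulfate (4.24 ± 0.31). Igfbp3 stood at 329.1 and 324.7 CPM in MC010 and 7.82 and 9.54 in MC011, against 1.38 to 2.49. Ddit4, an mTORC1 inhibitor (-1.87 ± 0.27), and Thbs1, the matrix protein thrombospondin-1 (-1.71 ± 0.38), were among those called lower in all 4 comparisons between lines. The order of Trp53 was found in 4 of the 43, Trp53i11, Igfbp3, Cyfip2 and Ak1 (Cyfip2 and Ak1 were named after their values were seen), beside 2.75% of all genes. The number lower was 9 without MC011 and 3 without MC659, and when the libraries of each line were summed 0 of all 15153 genes were called, this list included. Between MC010 and MC011, 10 were higher and 10 lower, 46.5% where 31.6% of all genes were called, among them the alkyltransferase gene Mgmt (-3.38) and the autophagy gene Dram1 (-3.00).

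The 20 cell cycle genes that p53 lowers through p21 and the DREAM complex, all tested, had no call in the label contrast (edgeR). Of all genes 22.5% were called, and the median of the 20 was 0.13. By adjusted p alone 4 were higher and 2 lower, and the share of all genes at that threshold was not counted. Without MC011 2 were higher and 1 lower, and without either of its libraries 1 was lower. Between MC010 and MC011, 6 were higher in MC010 and none lower past both thresholds (30%, with 31.6% of all genes called), among them Kif23, a motor of cytokinesis (1.13), and Brca1, a repair gene (0.99). The median was 0.24, in the line where Cdkn1a itself was 3.96-fold higher.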

How the data were processed

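RNA of 8 libraries from 4 MCA-induced tumor lines was sequenced with a stranded mRNA kit. The authors aligned reads to mm10 with STAR 2.7.3a and counted them per gene with HTSeq 0.11.2, per the submitters' processing notes, and deposited raw counts per gene and library. Whether HTSeq counted by strand is not given in the sources used here. The deposited table also holds scaled counts and the authors' own DESeq2 comparison, and neither was used. Every gene in it reached 20 counts or more over the libraries. The members and lists were chosen with earlier results of these data known.

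Counts were analysed in R 4.3.3 with edgeR 4.0.16. Genes passed filterByExpr by label, counts were normalized by TMM, and the robust quasi-likelihood test compared the labels, or the lines in a second fit with 1 group per line. P-values were adjusted over 15153 genes by Benjamini-Hochberg, and genes were called at 0.05 with an absolute log2 fold change over 0.59. Standard errors were derived from the F statistic. The libraries of a line come from 1 tumor. In the fit by line, p-values measure the spread between libraries of a line. In the label contrast they measure the spread among all libraries of a label, differences between its lines included, with libraries taken as independent. The sources do not say whether the libraries of a line came from separate cultures. They were not duplicates: chi-square per degree of freedom was 7.51 to 12.8. Levels per kilobase used exon lengths from GENCODE M21, whose coordinates matched those of the table for 29 of 32 members. The floor covers counting error only.

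All members were named, with Cdkn2a and, from each further list, up to 3 genes in each direction with the largest fold change among those called by label and in all 4 comparisons between lines, and up to 2 called between MC010 and MC011. One item under this rule is not reported here, though list counts and medians include it. Of the members, 7 of 32 share exon bases with another annotated gene. Alternatives were DESeq2 1.42.0, limma-voom (limma 3.58.1) with the line as a random block, counts added per line, no filter, upper-quartile scaling, the library number as a block, each line or library left out, and no threshold on the fold change. In counts simulated for these libraries, 98 of 100 genes changed by 1 on the log2 scale and 100 of 100 changed by 2 were recovered in the label contrast, with 3 false calls among 15321 unchanged genes. The simulated lines of a label did not differ from each other, and the spread was that between libraries of a line. These figures therefore do not cover differences between lines, which the real label contrast holds. The main fits did not pair the lines by library number.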

Additional observations from a re-analysis of the deposited data

Results flagged for a closer look

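The difference between the KO-labelled lines themselves passed both thresholds for 9 of the 31 genes (edgeR, 1 group per line), with log2 differences, MC010 minus MC011, of 1.06 for Trp53, 1.98 for Cdkn1a, -0.99 for Bbc3, 2.23 for Trp53inp1, -0.89 for Perp, -1.18 for Fas, 0.75 for Plk2, 2.49 for Plk3 and 1.19 for Ddb2. Since both lines were set against the same WT-labelled libraries, this is also the difference between their contrasts with WT. Ddit4l was at 0.0222 CPM in the second library of MC659 and at 0 in the other 3 libraries labelled WT. It was the 1 library that stood apart among 64 groups of 4 libraries examined, of which chance gives about 1 in 20, and the value is under the floor of 3 counts.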

How the results depend on the processing

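Each line is 1 tumor, so the label contrast rests on 2 lines against 2. When the libraries of each line were summed (edgeR), 0 of all 15153 genes were called, and so 0 members, 0 regulators and 0 further targets, with 3361 of all genes at an unadjusted p under 0.05. With the line as a random block (limma-voom, correlation 0.828) 2 regulators were lower, and Perp (0.0624) and Ddb2 (0.0893) lost their adjusted p.

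Without MC010 no regulator was higher (0). Without MC011, 3 regulators were higher, 9 further targets lower, and 2 DREAM genes higher and 1 lower. Without MC654, 3 members were higher. Without MC659, 2 members were lower, 0 regulators higher and 2 lower, and 3 further targets lower. With no threshold on the fold change, 8 members were lower, 5 regulators higher and 7 lower, and 4 DREAM genes higher and 2 lower by label. Between MC010 and MC011 this gave 12 members higher and 11 lower, 14 regulators higher and 9 lower, 16 further targets higher and 19 lower, and 14 DREAM genes higher and 3 lower. Between MC654 and MC659, 2 members were then higher. In all 4 comparisons between lines 7 members were higher and 7 lower, and 1 kept the order of Trp53. The shares of all genes at the adjusted p alone were not counted, so the counts without the fold threshold have no background beside them.

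The label contrast of genes that were not called with all libraries reversed in places. Without MC010 it was -0.029 for Ppm1d, -0.17 for Wrap53, -0.34 for Cdkn1a, 0.085 for Bax, 0.026 for Bbc3, -0.89 for Trp53inp1, -1.26 for Plk3, 0.059 for Rrm2b, 0.055 for Aen and -0.13 for Pidd1, of which Trp53inp1 and Plk3 then passed both thresholds. Without MC011 both were called the other way, Trp53inp1 at 1.35 and Plk3 at 1.25, Bbc3 was called at -0.95, and the contrast of Mdm2 was 0.18. Without MC654 it was 0.011 for Mdm2, -0.0076 for Ppm1d and 0.014 for Aen, and without MC659 0.013 for Rrm2b. Upper-quartile scaling, which moved the median of all genes from 0.0212 to -0.000448, gave -0.0054 for Ppm1d and -0.0064 for Wrap53. The cause was not tested.

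With 1 library left out at a time it ranged from -0.12 to 0.051 for Mdm2, -0.014 to 0.033 for Ppm1d, -0.043 to 0.066 for Wrap53, -0.16 to 0.013 for Bax and -0.14 to 0.014 for Rrm2b. In the same fits the members called by label were 5 to 6 higher and 4 to 4 lower, the regulators 0 to 2 and 2 to 5, the further targets 12 to 14 and 5 to 5, and the DREAM genes 0 to 0 and 0 to 1. Between MC010 and MC011 they were 6 to 7 and 2 to 4 for members, 3 to 4 and 3 to 3 for regulators, 10 to 12 and 9 to 10 for further targets, and 5 to 6 and 0 to 1 for DREAM genes. Between MC654 and MC659 the members were 0 to 1 and 4 to 6, in all 4 comparisons 3 to 4 and 2 to 3, and in the order of Trp53 0 to 0.

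Deviations of same-numbered libraries correlated at 0.185 to 0.275 among MC010, MC011 and MC654. Between each of these lines and MC659 they correlated at -0.181 to -0.105. Whether the libraries share a structure across lines was not tested. In the fit that took the library number as a replicate block, 5 members were higher and 4 lower by label, and Ddb2 had an adjusted p of 0.0542 (edgeR). DESeq2 and no filter on low counts left all these counts within 1.5 times.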
